A study of Mus musculus with 18 samples.

Results

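The comparison was between the 9 libraries from livers of mice kept on the high-fat diet and the 9 from livers of mice kept on the low-fat diet, 18 of the 18 libraries in the series, with the intervention as a covariate. It asked which liver transcripts differed with dietary fat whatever the intervention. The series sequenced liver polyA RNA of C57BL/6J wild-type mice whose treatment started at 5 weeks of age and whose livers were taken at 62 weeks, in midlife. The labels abbreviate the treatments: LF and HF are taken as a diet low or high in fat, CR as caloric restriction and Ex as exercise. Each of 6 groups had 3 libraries. LF and HF had no intervention, LF+CR and HF+CR combined a diet with CR, and LF+Ex and HF+Ex combined it with Ex. All 18 libraries shared the strain, the wild-type genotype and the age, and no transgene or deletion was labelled. The labels do not say that each library is 1 mouse or give the sex or the diet's composition, so p-values measure the spread between these libraries, which may be partly technical. The Y-linked gene Ddx3y was between 5.95 and 10.9 RPKM in the 18 libraries, and Xist, the X-inactivation RNA, was at most 0.0184 RPKM.

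Long feeding of a fat-rich diet is known to make the mouse liver store triglyceride in lipid droplets, to lower its own synthesis of fatty acids and to draw in immune cells. Liver cells respond to interferons and to cytokines from those cells by transcribing antigen-processing genes and secreted acute-phase proteins. Nutrient-sensing factors such as SREBP2 (sterol synthesis) and PPAR alpha (fatty acid oxidation) set much of the rest of the liver's metabolic programme.

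Values are RPKM, reads per transcript length scaled to the library's mapped reads, as deposited by the authors. The sum over all transcripts was between 512495 and 589042 RPKM per library, and 9071 to 9999 genes reached 1 RPKM. The number of reads is not in these values, so the depth is unknown and no counting interval is given. Of 24040 genes in the table, 10358 reached 1 RPKM in at least 3 of the 18 libraries and were tested. The gene nearest to that limit inside it, Traf5, had a third-highest value of 1.001 RPKM, and the transcript NR_030780, just outside it, had 0.9998 RPKM. The hepatocyte markers other than albumin (11 genes) summed to between 25700 and 33700 RPKM in the LF libraries and to between 22900 and 37600 RPKM in the HF libraries. The albumin gene Alb was listed at 0 in 14 libraries and at 30400 to 33200 RPKM in HF 1 and the 3 HF+Ex libraries, so its value carries no diet difference. Counts of called genes, and of members of some lists, are also given without those 4 libraries. For most single genes named below that fit is not given, and many of them lost their call in it. Pancreatic acinar enzyme transcripts reached 2660 RPKM in LF+CR 1. HF+CR 1 was next, with 429 RPKM in sum, then LF+Ex 1 with 47.8 RPKM, and no other library exceeded 38.6 RPKM. Bile duct markers were highest in HF+CR 3, at 696 RPKM, and LF 2, at 613 RPKM.

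Diet differences were wide but mostly small. With diet and intervention in one additive model (limma on log2(RPKM + 1), with a threshold of 0.05 on the p-value adjusted by Benjamini-Hochberg across the tested genes), 2217 of 10358 genes were called, or 21.4%. Of these, 1333 genes (12.9% of those tested) were higher on HF and 884 genes (8.53%) were lower. The median size of the difference among called genes was 0.37 on the log2 scale, and 121 genes differed by at least 1, of which 87 were higher and 34 lower on HF. The share of called genes that were higher was 60.1%, and it depended on the scaling: it was 45.3% after quantile normalization and 44.9% after correction for GC content and length. Called higher genes had a median transcript GC content of 47.7% and called lower genes 53.5%, against 50.5% for all genes tested. The rank correlation of a gene's deviation with its GC content ran from -0.33 in HF 3 and HF+CR 2 to 0.52 in LF 1, and its part in the split between higher and lower genes was not tested.

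**Figure D1:**
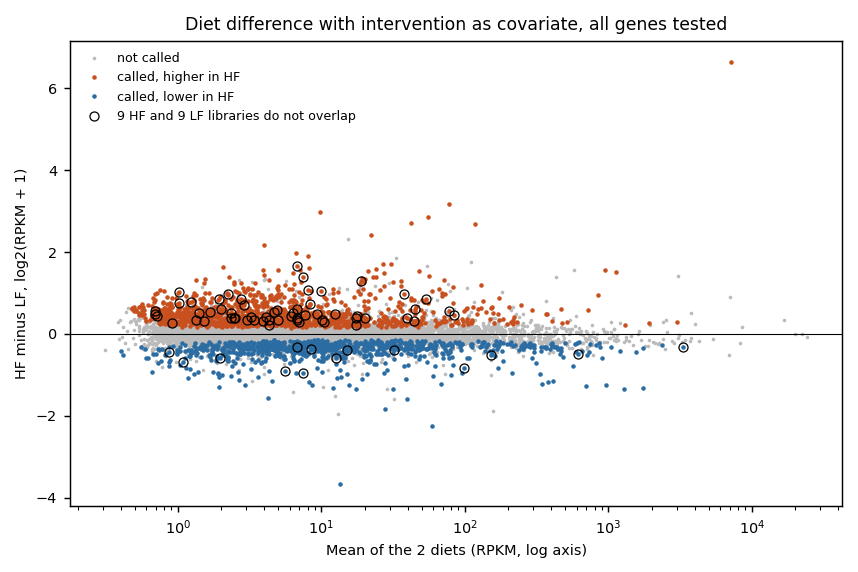
Each point is 1 of the 10358 genes tested: the x axis is the mean of both diets in RPKM on a log axis, the y axis the difference HF minus LF on log2(RPKM + 1) with intervention as covariate. The 1333 genes called higher and 884 called lower lie mostly within 1 log2 unit of 0, the 72 ringed genes are those whose diets do not overlap, and the highest and lowest points are Alb and Lpgat1, which are listed at 0 in some libraries and not read as diet differences.

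Most called genes had the same direction in each intervention. The difference had 1 sign with no intervention, under CR and under Ex for 2166 of the 2217 called genes (97.7%), against 47.9% of all genes tested. It was positive in all 3 for 1301 called genes and 26.6% of all genes, and negative in all 3 for 865 called genes and 21.3% of all genes. Since the pooled test averages the 3 differences, part of that share follows from the call itself. In 308 genes (2.97% of those tested) the 3 HF and 3 LF libraries did not overlap in any of the 3 interventions, 204 of them higher and 104 lower on HF. In 72 genes (0.695%) all 9 HF libraries lay on 1 side of all 9 LF libraries, 58 higher (0.56%) and 14 lower (0.135%). Some of them were below 1 RPKM in every library of 1 diet and passed the filter only through the other diet. The filter favours a diet difference in such genes, so their part of these counts is a description. Diet accounted for a median of 11.2% of a gene's variance, intervention for 15.1%, their interaction for 9.28% and the spread within groups for 50.8%. These shares have 1, 2, 2 and 12 degrees of freedom. A source with more of them takes up more variance even without an effect, so the shares do not rank the sources.

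The genes whose diets did not overlap ranged widely in level, from Mterf2, below 2 RPKM in every library, to Eef1a1, at 2720 RPKM or more. Mterf2, which encodes a mitochondrial DNA-binding protein of the transcription termination factor family, ranged from 0.245 to 0.855 RPKM (median 0.504) on LF and from 1.1 to 1.92 RPKM (median 1.56) on HF. Its difference was 0.76 ± 0.07 (SE) on the log2 scale (adjusted p = 6.06e-05), with values of 0.75, 0.68 and 0.86 with no intervention, under CR and under Ex. Every HF library was above every LF library, and so it was for the other genes of this paragraph with a positive difference. Prex1, a guanine nucleotide exchange factor for Rac, ranged from 0.448 to 1.84 RPKM on LF and from 2 to 3.27 RPKM on HF (difference 0.85 ± 0.08, adjusted p = 6.06e-05). Tpmt, thiopurine methyltransferase, ranged from 4.6 to 7.72 RPKM on LF and from 9.49 to 11.6 RPKM on HF (0.74 ± 0.08, adjusted p = 8.91e-05). The nucleosome-binding protein gene Hmgn2 rose by 1.06 ± 0.11, and H3f3b, 1 of the genes for histone H3.3, from a range of 29.7 to 42.5 RPKM to one of 49 to 66.8 RPKM (0.62 ± 0.07); both have near-identical copies elsewhere in the genome, among which the authors' counting could have split reads. Marcks, a substrate of protein kinase C, Plgrkt, a plasminogen receptor, the channel family gene Calhm6, the BLOC1 and SNARE-associated gene Snapin and the clone gene E130311K13Rik rose by 0.77, 0.98, 1.03, 0.43 and 0.6. Mterf2, Marcks and Calhm6 were at most 0.855, 0.852 and 0.785 RPKM on LF. They passed the filter of 1 RPKM only through HF libraries, so their calls are a description.

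Of the 14 genes lower in every HF library, Hnf4a, the nuclear receptor that maintains the hepatocyte programme, was the one on a list used here. It was between 148 and 193 RPKM (median 180) on LF and between 103 and 136 RPKM (median 128) on HF. It fell by 0.51 on the log2 scale (SE 0.07, adjusted p = 0.000294), by 0.48, 0.52 and 0.53 in the 3 interventions. The next genes were chosen after their values were seen. Eef2 and Eef1a1, translation elongation factors, also fell in every library: Eef2 was between 570 and 852 RPKM on LF and between 476 and 564 RPKM on HF, and Eef1a1 was between 3240 and 4040 RPKM on LF and between 2720 and 3160 RPKM on HF. Agxt2, a mitochondrial aminotransferase of glyoxylate and beta-aminoisobutyrate, was between 23 and 53.2 RPKM on LF and between 53.5 and 86.8 RPKM on HF. Enpp2, which encodes the lysophospholipase autotaxin, was between 2.71 and 21.5 RPKM on LF and between 22.4 and 30.8 RPKM on HF; the LF+CR libraries were its lowest, at 2.71, 8.47 and 7.71 RPKM.

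Interferon-response genes rose together, with the most members called higher of the 43 lists described. Of the 42 genes on the list 40 were tested, and 31 were higher on HF and 0 lower, where 12.9% of all genes were called higher. Their median difference was 0.69 on the log2 scale, against 0.02 for all genes tested, and the medians were 0.59 with no intervention, 0.6 under CR and 0.9 under Ex. The 31 genes were each higher on HF in all 3 interventions. The list was chosen with earlier results of these data known, so its count is a description.

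These genes are known to be switched on through an interferon-stimulated response element near the transcription start, whose core reads GAAA, any 2 bases (NN) and GAAA. That core, sought on both strands in the 250 bases before each RefSeq start (GRCm38.p6), was found for 12 of the 25 raised interferon-response genes with a RefSeq promoter entry (48%), for 260 of 8276 tested genes with an entry (3.14%) and for 67 of the 1055 genes called higher with an entry (6.35%). The core was also found for 14 of the 31 tested genes of the list with an entry, raised or not (45.2%). The share among raised genes was thus near that of the list and is a description. Matches may overlap each other. Upstream bases are shown for 4 of the raised genes that hold the core, 1 from each of 4 protein families: Isg15, a ubiquitin-like modifier (chr4:156200819-156200938, minus strand), Irgm1, an immunity-related GTPase (chr11:48871421-48871540, minus strand), Ifit1, an RNA-binding antiviral protein (chr19:34640769-34640888, plus strand), and Gbp2, a guanylate-binding protein (chr3:142620543-142620662, plus strand). Each is the 120 bases ending 1 base before the start, 5′ to 3′ on the gene's strand, with capitals on the core or its reverse complement.
Isg15: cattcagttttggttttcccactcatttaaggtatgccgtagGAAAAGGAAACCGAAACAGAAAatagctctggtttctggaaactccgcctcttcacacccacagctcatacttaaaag
Irgm1: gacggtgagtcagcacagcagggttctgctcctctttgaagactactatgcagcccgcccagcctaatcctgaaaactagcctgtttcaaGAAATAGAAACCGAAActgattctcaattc
Ifit1: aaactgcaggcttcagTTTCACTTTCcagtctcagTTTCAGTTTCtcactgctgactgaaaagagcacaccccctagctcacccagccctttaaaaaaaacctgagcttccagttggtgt
Gbp2: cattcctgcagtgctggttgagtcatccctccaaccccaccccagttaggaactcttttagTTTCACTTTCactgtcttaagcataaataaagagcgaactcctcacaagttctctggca

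The levels of those 4 genes overlapped between diets. Isg15 was between 2.63 and 17.6 RPKM (median 6.63) on LF and between 7.19 and 21.9 RPKM (median 17.8) on HF, and it rose by 1.01 ± 0.24 (adjusted p = 0.00727). Irgm1 was between 6.03 and 17.7 RPKM (median 10.9) on LF and between 16.1 and 31 RPKM (median 22.1) on HF, with 8 of 9 HF libraries above all LF libraries, and it rose by 0.9 ± 0.12 (adjusted p = 0.000294). Isg15 overlapped more, with 5 of 9 HF libraries above all LF libraries. Ifit1 was between 0.34 and 3.5 RPKM on LF and between 2.11 and 6.42 RPKM on HF (1.02 ± 0.14, adjusted p = 0.000311). Gbp2 was between 0.938 and 2.91 RPKM on LF and between 1.48 and 10.4 RPKM on HF (1.24 ± 0.22, adjusted p = 0.00148).

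The antigen-processing pair Tap1 and Psmb9 stands head to head in the class II region of the major histocompatibility complex. Tap1 encodes a subunit of the transporter that carries peptides into the endoplasmic reticulum, and Psmb9 the catalytic subunit that replaces a constitutive one in the immunoproteasome. The 225 bases between their RefSeq starts (chr17:34187331-34187555, GRCm38.p6, shown on the plus strand, on which Tap1 is read) are given because both genes rose; capitals mark the 1 match, on the minus strand, to GGGCGG, the GC box, which 63.9% of the tested genes with an entry hold in their 250 bases. The response element core does not occur in these letters.
Tap1-Psmb9: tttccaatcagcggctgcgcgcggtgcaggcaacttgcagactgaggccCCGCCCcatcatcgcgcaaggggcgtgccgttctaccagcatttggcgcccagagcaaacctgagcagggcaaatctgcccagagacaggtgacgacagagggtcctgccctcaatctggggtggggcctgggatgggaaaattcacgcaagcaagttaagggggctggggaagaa

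Tap1 did not overlap between diets. It was at 7.74, 6.9 and 6.33 RPKM in LF, 1.45, 2.34 and 3.23 RPKM in LF+CR and 4.77, 6.05 and 6.74 RPKM in LF+Ex. On the high-fat diet it was at 12.7, 13.5 and 9.48 RPKM in HF, 8.43, 8.26 and 8.12 RPKM in HF+CR and 10.9, 13.1 and 14.3 RPKM in HF+Ex. CR libraries were the lowest on each diet, and the HF+CR libraries were still above every LF library. The pooled difference was 1.07 ± 0.13 (adjusted p = 0.0002). Psmb9 was between 3.61 and 17.4 RPKM (median 11.2) on LF and between 15.3 and 47.9 RPKM (median 32.5) on HF, and it rose by 1.34 ± 0.18 (adjusted p = 0.000294). Of the 37 proteasome subunits tested, 5 were higher on HF (Psmd14, Psma3, Psma1 and the interferon-response members Psmb9 and Psmb8) and Psmd9 was lower, with a median of 0.03, a share of higher genes near the 12.9% of all genes tested; the count of higher proteasome subunits was 3 without any of LF+CR 1, LF+CR 2 or HF 2.

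**Figure D2:**
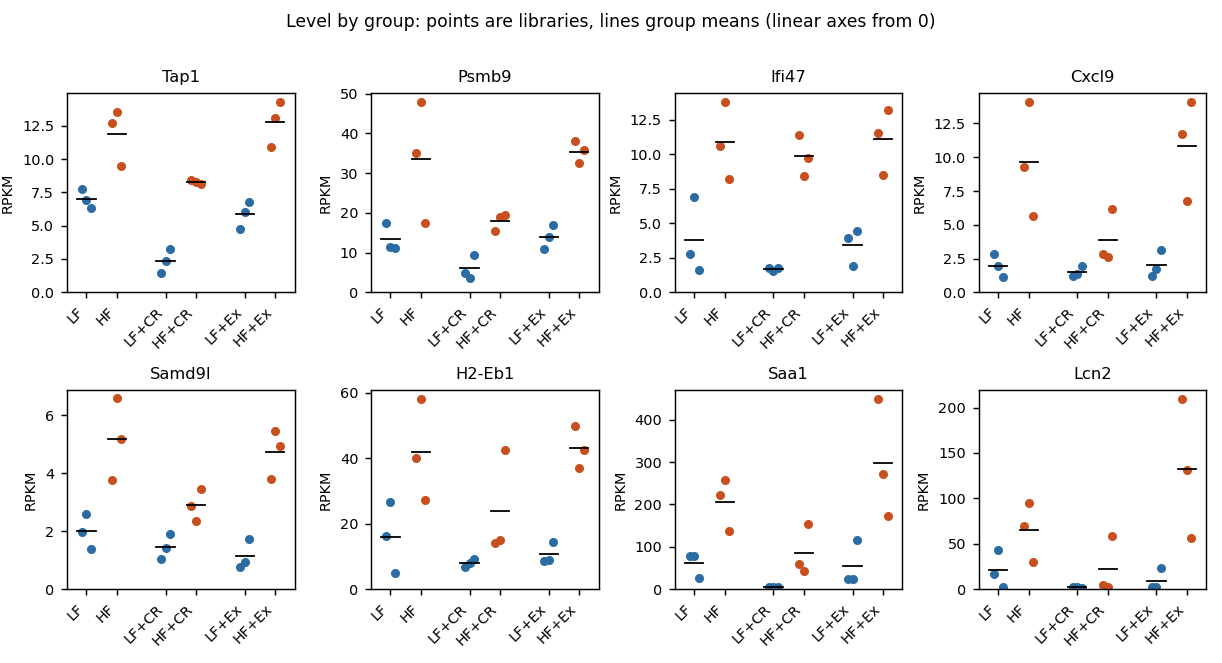
RPKM in each library (points; blue LF diets, orange HF diets) and group mean (line) for 8 raised immune and acute-phase genes, in the order LF, HF, LF+CR, HF+CR, LF+Ex, HF+Ex on linear axes from 0. Tap1 and Ifi47 show no overlap between the 9 LF and 9 HF libraries, while Lcn2 in HF+CR, at 4.85, 2.33 and 58.6 RPKM, overlaps the LF+CR libraries.

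Among the signalling members, the transcription factor gene Irf8 rose by 0.71 ± 0.15 (adjusted p = 0.00374). Irf1, Irf7, Irf9 and Stat2 were not called, with differences of 0.08, -0.12, 0.22 and 0.17. Ifi47, an immunity-related GTPase, was between 1.52 and 6.92 RPKM on LF and between 8.2 and 13.8 RPKM on HF, without overlap (1.65 ± 0.19, adjusted p = 0.000131); it was named by its size and not by the list. The chemokines that attract T cells also rose. Cxcl9 was between 1.12 and 3.1 RPKM on LF and between 2.6 and 14.1 RPKM on HF (1.56 ± 0.22, adjusted p = 0.000391), and Cxcl10 rose by 1.48 ± 0.4 (adjusted p = 0.0145). Samd9l and Rtp4, antiviral factors, rose by 1.05 ± 0.14 and 0.82 ± 0.1. Ubd, a ubiquitin-like protein induced by inflammatory cytokines, was at most 1.83 RPKM on LF and between 0.319 and 42.6 RPKM on HF (2.97 ± 0.56, adjusted p = 0.00211), with 2 of the HF+CR libraries at 0.582 and 0.319 RPKM, among the LF values.

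Genes of MHC class II antigen presentation rose with them. Of 10 genes of class II antigen presentation, 4 were under 1 RPKM in every library, and the 6 tested were called higher: H2-Eb1, H2-Aa, H2-Ab1, Cd74, H2-DMb1 and H2-DMa, with a median difference of 1.37. Among all genes tested, 12.9% were called higher. H2-Eb1, the beta chain of a class II molecule, was between 5 and 26.7 RPKM (median 9.02) on LF and between 14 and 58.2 RPKM (median 40.2) on HF, with 7 of 9 HF libraries above all LF libraries (1.58 ± 0.27, adjusted p = 0.00116). Cd74, the invariant chain, was between 17.4 and 85.4 RPKM on LF and between 41 and 153 RPKM on HF (1.33 ± 0.26). Raet1d, a ligand of the receptor NKG2D on natural killer cells, rose by 1.97 ± 0.27, from a median of 1.71 RPKM to one of 10.6 RPKM. Near-identical class II and Raet1 genes could have shared reads in the authors' counting.

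Some markers of immune and matrix-producing cells were also higher, while others were not. Among all genes tested, 12.9% were called higher and 8.53% lower. Of the 16 macrophage and Kupffer cell markers tested, 7 were higher on HF and Cd163, a scavenger receptor, was lower. The difference was positive for 11 of the 16. Marco was between 2.03 and 20.6 RPKM on LF and between 0.147 and 5.45 RPKM on HF, and was not called. Adgre1, the F4/80 antigen, rose by 0.77 ± 0.15, from a median of 3.18 RPKM to one of 6.92 RPKM. Cd163 was between 1.04 and 2.93 RPKM on LF and between 0.00871 and 2.54 RPKM on HF, where HF+CR 1 and HF+CR 2 were at 2.54 and 1.79 RPKM. Over the 19 markers in the table the sum was between 166 and 515 RPKM on LF and between 205 and 539 RPKM on HF. Of the 5 lymphocyte markers tested, 4 were higher (Ccl5, Cd79b, Nkg7 and Cd79a), and the 18 in the table summed to between 1.3 and 16.6 RPKM on LF and between 6.4 and 33.2 RPKM on HF. On LF, Cd79b, Nkg7 and Cd79a reached 1 RPKM only in LF 2, at 1.2, 1.07 and 1.21 RPKM. They passed the filter through HF libraries, so the count of lymphocyte markers is a description. No marker of either list was at 0 in every library, but 13 of the 18 lymphocyte markers were under 1 RPKM in all 18. Of 9 neutrophil markers, 3 were at 0 in every library and 0 of the 2 tested were called. Of the 19 stellate cell and matrix markers tested, 8 were higher and 0 lower, with a median of 0.46. The difference was positive for 16 of the 19. Acta2, between 0.842 and 7.4 RPKM on LF and between 1.01 and 4.93 RPKM on HF, was not called. The collagen gene Col1a1 was between 0.318 and 3.12 RPKM on LF and between 0.627 and 11.4 RPKM on HF (1.27 ± 0.34, adjusted p = 0.0138). On LF, Col1a1 reached 1 RPKM only in LF 1 and LF 2, at 1.36 and 3.12 RPKM. It passed the filter through HF libraries, so its call is a description. Its highest HF value, 11.4 RPKM, was in HF+CR 3, the library highest in bile duct markers. Of 13 endothelial markers, Lyve1 was higher and Clec4g lower, with a median of -0.02. In whole liver, more cells of a type and more RNA per cell cannot be told apart, and the part of these cells in the interferon and class II differences was not tested.

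The immune counts were smaller without the Ex groups or without the 4 libraries in which Alb was above 0. Interferon response genes called higher numbered 18 in each case, class II genes 4 and 3, macrophage markers 1 and 1, and matrix markers 1 and 1. Under quantile normalization and GC correction the interferon count was 31 and 32. It was between 29 and 33 when 1 library was left out, and matrix markers ran from 6 to 13, the highest without LF 2.

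Acute-phase proteins, which hepatocytes secrete under interleukin-6 and related signals, rose in part. Of 30 tested, 11 were higher and C3, the central complement component, was lower, with a median of 0.28, where 12.9% of all genes tested were higher and 8.53% lower. Saa1, a serum amyloid A apolipoprotein, was at 78.5, 77.8 and 26.1 RPKM in LF, 5.45, 5.53 and 6.12 RPKM in LF+CR and 24.3, 23.1 and 116 RPKM in LF+Ex. It was at 222, 257 and 137 RPKM in HF, 58.7, 42.8 and 153 RPKM in HF+CR and 448, 271 and 173 RPKM in HF+Ex. The 3 HF libraries were above the 3 LF libraries within each intervention. The LF+CR libraries were the lowest of all, and HF+CR 1 and HF+CR 2 were the lowest on HF, while HF+CR 3 at 153 RPKM lay above HF 3. Saa1 rose by 2.68 ± 0.36 (adjusted p = 0.000311) and its neighbour Saa2 by 2.85 ± 0.42 (adjusted p = 0.000506); their sequences are close enough that reads could have been split. Lcn2, an iron-siderophore binding protein, was between 1.2 and 42.7 RPKM (median 2.47) on LF and between 2.33 and 209 RPKM (median 58.6) on HF (2.72 ± 0.64, adjusted p = 0.00737). Orm2 and Orm3, orosomucoids, rose by 1.7 and 2.18, and Orm3 differed between interventions (adjusted p = 0.0389): its difference was 2.67 with no intervention, 0.53 under CR and 3.33 under Ex. On LF, Orm3 reached 1 RPKM only in LF+CR 3 and LF+Ex 3, at 1.16 and 1.13 RPKM. It passed the filter through HF libraries, so its calls are a description. Steap4, a metalloreductase, rose by 0.88 ± 0.12, with 8 of 9 HF libraries above all LF libraries. The abundant Fga, Fgb and Fgg, the fibrinogen chains, were not called, with differences of -0.18, -0.22 and -0.06. Without the 4 libraries with Alb above 0, acute-phase genes called higher numbered 4, and without the Ex groups 5.

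Lipid droplet genes moved in both directions, and several were low under CR on both diets. Of 22 genes tested, 7 were higher (Cidea, Cidec, Lpl, Mogat1, Fitm1, Fabp4 and Plin2) and 3 lower (Pnpla2, Plin5 and Dgat1), with a median of 0.17. Among all genes tested, 12.9% were higher and 8.53% lower, and the count of 3 lower genes is not far from that share. Cidea, which enlarges droplets by fusing them, was at 26.5, 0.509 and 5.4 RPKM in LF and 44.9, 72.2 and 48 RPKM in HF. In LF+Ex it was at 0.85, 0 and 28.2 RPKM and in HF+Ex at 44.9, 71.1 and 53.3 RPKM. Under CR it stayed at or below 0.443 RPKM on both diets. The pooled difference was 2.43 ± 0.66 (adjusted p = 0.0156), made up of 3.09, 0.31 and 3.9 in the 3 interventions, whose interaction was not called (adjusted p = 0.413). Cidec, its homologue, rose by 1.72 ± 0.5 (adjusted p = 0.0213). Fabp4, the fatty acid binding protein of adipocytes and macrophages, was between 8.67 and 18.8 RPKM on LF and between 13.3 and 41.4 RPKM on HF (0.98 ± 0.19, adjusted p = 0.00285). Mogat1, an acylglycerol acyltransferase, rose by 1.11 ± 0.28 and Fitm1, a droplet-forming membrane protein, by 1.09 ± 0.25. The lipase Pnpla2 fell by 0.5 and the oxidative droplet coat Plin5 by 0.49. Plin2, the main droplet coat, rose by 0.48 ± 0.17 (adjusted p = 0.0465), a call lost in 13 of the 18 fits that left out 1 library (adjusted p from 0.00822 to 0.0874). Pparg, Cd36 and Plin4 were not called (-0.08, 0.21 and 0.51). Without the Ex groups the list had 0 higher and 1 lower, and without the 4 libraries with Alb above 0 it had 0 called.

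Fatty acid synthesis genes were lower in a few steps. Of 26 genes, 5 were lower (Scd1, Acacb, Me1, Acss2 and Slc25a1) and Mid1ip1 was higher, with a median of -0.11. Among all genes tested, 8.53% were lower and 12.9% higher. The medians of the list were 0 with no intervention, -0.32 under CR and 0.05 under Ex. Without the pancreas libraries 1 gene of the list was called lower. Scd1, which desaturates stearate, was between 885 and 4620 RPKM (median 2250) on LF and between 351 and 1940 RPKM (median 794) on HF. It fell by 1.31 on the log2 scale (SE 0.36, adjusted p = 0.0166), by 0.66 with no intervention, 2.53 under CR and 0.74 under Ex, and the highest 2 libraries were LF+CR 3 at 4620 RPKM and LF+CR 1 at 3690 RPKM. Acacb, which makes the malonyl-CoA that restrains mitochondrial fatty acid entry, fell by 1.07 (adjusted p = 0.0139). Me1, malic enzyme, fell by 0.96 and depended on the intervention (interaction adjusted p = 0.0399; -0.48, -2.14 and -0.25). None of these 3 was called without the CR groups. Fasn, the fatty acid synthase, was not called (-0.11 ± 0.36), with LF+CR libraries at 308, 89.9 and 228 RPKM.

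Of 38 tested genes that oxidize fatty acids or are targets of PPAR alpha, 9 were lower (8.53% of all genes were) and 2 higher, Hadh among them, with a median of -0.06. The lower ones were Cyp4a10, Cyp4a14, Cyp4a31, Acot1, Acot3, Acot4, Ehhadh, Angptl4 and Acadvl. Cyp4a12b, a further Cyp4a gene that stands on the male-biased list, was not called (-1.3, adjusted p = 0.232), with differences of -2.78, 2.72 and -3.83 in the 3 interventions. Cyp4a14, a fatty acid omega-hydroxylase, was at 1110, 2060 and 881 RPKM in LF, 1080, 928 and 453 RPKM in LF+CR and 1170, 402 and 887 RPKM in LF+Ex. It was at 318, 608 and 708 RPKM in HF, 237, 333 and 316 RPKM in HF+CR and 238, 338 and 478 RPKM in HF+Ex. Group means were lower on HF in each intervention. Within an intervention the one overlap was LF+Ex 2 at 402 RPKM, below HF+Ex 3 at 478 RPKM. Across interventions, LF+CR 3 and LF+Ex 2 also lay below HF 2 and HF 3. Cyp4a14 fell by 1.27 on the log2 scale (SE 0.24, adjusted p = 0.00229), and Cyp4a10 fell by 1.17 (SE 0.21, adjusted p = 0.0016) and Cyp4a31 by 1.57. The thioesterases Acot1, Acot3 and Acot4 fell by 1.34, 1.83 and 0.65. Cyp4a and Acot genes lie in clusters of close paralogues that can share reads. Cpt1a, the entry step of mitochondrial oxidation, was not called (0.16). Ppara itself differed by 0.07.

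Cholesterol synthesis genes were higher at 6 steps and lower at 0 of 25 genes, with a median of 0.21. Among all genes tested, 12.9% were higher and 8.53% lower. Msmo1, a sterol C4 demethylase, was at 9.71, 5.16 and 10.6 RPKM in LF and 24.2, 26.9 and 39.8 RPKM in HF. It was at 23.6, 23.9 and 28.8 RPKM in LF+CR and 98.9, 99.9 and 34.1 RPKM in HF+CR, and at 4.54, 9.22 and 5.29 RPKM in LF+Ex and 11.1, 15.4 and 23.8 RPKM in HF+Ex. The LF+CR libraries were above the other LF libraries, and HF+CR 1 and HF+CR 2 above the other HF libraries, while HF+CR 3 at 34.1 RPKM lay below HF 3. HF was above LF without overlap within each intervention (1.48 ± 0.22, adjusted p = 0.000442). Hmgcs1, HMG-CoA synthase, rose by 1.04 ± 0.22, Idi1 by 1.07 ± 0.27, Mvk, mevalonate kinase, by 0.78 ± 0.14, and Dhcr7, the last step, by 0.7 ± 0.17. Insig1, which holds back sterol synthesis, was not called (0.24). Sqle, squalene epoxidase, was called at 0.74 ± 0.26 (adjusted p = 0.0486), a call lost in 13 of the 18 fits that left out 1 library. Without the intervention term 1 gene of the list was called higher.

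**Figure D3:**
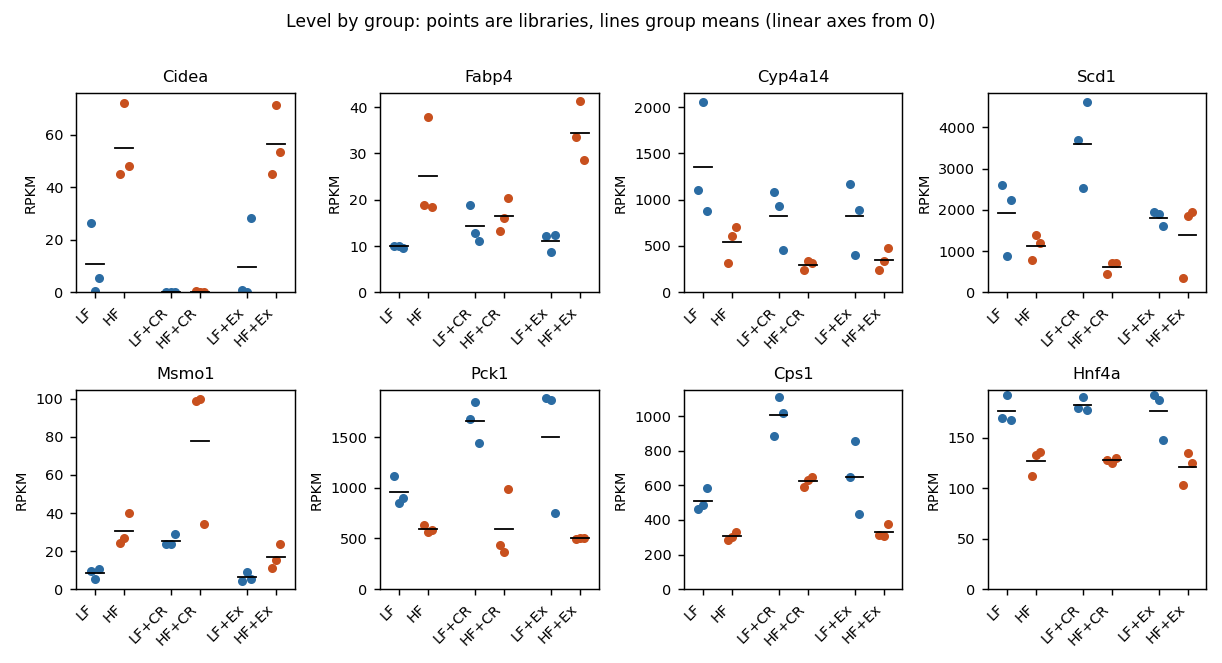
RPKM in each library (points; blue LF diets, orange HF diets) and group mean (line) for 8 metabolic genes, in the order LF, HF, LF+CR, HF+CR, LF+Ex, HF+Ex on linear axes from 0. Hnf4a is between 148 and 193 RPKM on LF and between 103 and 136 RPKM on HF in every intervention, whereas Cidea is at or below 0.443 RPKM in all 6 CR libraries.

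Of 20 genes of gluconeogenesis and insulin response, 5 were lower (Igfbp1, Pck1, Tat, Ppp1r3g and Irs2) and 0 higher, where 8.53% of all genes tested were lower, with a median of -0.28; the count was 3 without any of LF+CR 1, LF+CR 2 or HF+CR 2. Pck1, the cytosolic PEP carboxykinase, was between 753 and 1890 RPKM (median 1440) on LF and between 371 and 992 RPKM (median 505) on HF. Of the HF libraries 8 of 9 were below every LF library, and the exception was HF+CR 3 at 992 RPKM. It fell by 1.25 on the log2 scale (SE 0.21, adjusted p = 0.0011). Tat, tyrosine aminotransferase, was between 219 and 1430 RPKM on LF and between 133 and 418 RPKM on HF (-1.15 ± 0.16, adjusted p = 0.000367), without overlap within any intervention. Igfbp1 fell by 1.6 (SE 0.5, adjusted p = 0.0311), a call lost without any of LF 2, LF+CR 1, LF+CR 2, HF+CR 1 or HF+CR 2 (adjusted p up to 0.0625). G6pc, the last step of glucose output, was not called (-0.21 ± 0.22).

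Of 32 genes of amino acid catabolism and the urea cycle, 10 were lower and 3 higher, against 8.53% and 12.9% of all genes tested, with a median of -0.18. Cps1, the first enzyme of the urea cycle, was at 461, 486 and 582 RPKM in LF and 283, 303 and 331 RPKM in HF. It was at 885, 1110 and 1020 RPKM in LF+CR and 592, 632 and 647 RPKM in HF+CR, and at 648, 855 and 436 RPKM in LF+Ex and 312, 306 and 378 RPKM in HF+Ex. HF was below LF without overlap within each intervention (-0.78 ± 0.1, adjusted p = 0.000311), although HF+CR was above LF with no intervention. Bhmt, which remethylates homocysteine with betaine, rose by 1.56 ± 0.35 (adjusted p = 0.00611), from a median of 630 RPKM to one of 1330 RPKM, with differences of 1.6, 2.77 and 0.32. The count of lower genes in amino acid catabolism and urea cycle was 2 without the pancreas libraries, 2 without the CR groups and between 2 and 13 when 1 library was left out, the lowest without LF+Ex 1. It was between 3 and 6 without any of LF+CR 2, LF+CR 3, LF+Ex 2, HF+CR 1, HF+CR 2, HF+Ex 1 or HF+Ex 2. Cps1 stayed called in every alternative run.

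Lipoprotein and bile acid genes changed at single steps. Pltp, the phospholipid transfer protein, was between 53.7 and 161 RPKM on LF and between 19.7 and 62.3 RPKM on HF (-1.04 ± 0.21, adjusted p = 0.00314). Lcat, which esterifies cholesterol on high-density lipoprotein, was between 432 and 603 RPKM on LF and between 377 and 451 RPKM on HF, and 8 of 9 HF libraries were below every LF library (-0.41 ± 0.06, adjusted p = 0.000805). Of 22 genes of sterol efflux and lipoprotein, 4 were lower and Abcg1 was higher; Apob and Apoe were not called (0 and -0.08). Of 23 genes of bile acid synthesis and transport, 4 were lower and 2 higher, against 8.53% and 12.9% of all genes tested, and the count of lower genes was 2, near that share, without any of LF 1, LF 3, LF+CR 1, LF+Ex 2 or HF 2. The conjugating ligase Slc27a5 and the side-chain hydroxylase Cyp27a1 fell by 0.29 and 0.4, and the bile acid transporter Slc10a2, at 0.408 to 4.84 RPKM on LF and 3.21 to 6.74 RPKM on HF, rose by 0.81; its differences were 0, 1.68 and 0.74 in the 3 interventions (interaction adjusted p = 0.0508), and it was not called without the CR groups, the Ex groups, the pancreas libraries or the libraries with Alb above 0. Cyp7a1, the rate-limiting enzyme of bile acid synthesis, and Cyp8b1 were not called (0.43 ± 0.28 and 1.02 ± 0.38).

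Among other genes with the largest differences, Fabp5, an epidermal-type fatty acid binding protein, was between 18.8 and 318 RPKM on LF and between 6.34 and 49.4 RPKM on HF (-2.24 ± 0.31, adjusted p = 0.000367), without overlap within any intervention. Hamp2, a relative of the iron hormone hepcidin, fell by 1.35 (SE 0.33, adjusted p = 0.00905), with differences of -0.58, -2.69 and -0.78, and was not called without the CR groups. The insulin-like growth factor binding protein Igfbp2 fell by 1.23 (SE 0.27, adjusted p = 0.00489). Hectd2os, a non-coding RNA, rose by 1.91 ± 0.35 and the small GTPase gene Rnd2 fell by 1.35. Cyp2c40 was between 0.429 and 17.3 RPKM on LF and between 0.0636 and 0.775 RPKM on HF. It fell by 1.3 and has close paralogues. Cyp2c40 passed the filter of 1 RPKM only through LF libraries, so its call is a description. Lpgat1, Rpph1 and Tmem248 met the size rule but are not read as diet differences. Lpgat1 was listed at 0 in 8 of 9 HF libraries and in LF+Ex 3, with 31 RPKM in HF 2, and its second transcript row was not part of that value. Rpph1 is an RNA without a polyA tail, and Tmem248 was listed at 0 in HF+Ex 1.

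A minority of the genes of the translation and respiratory machinery passed the test, with small differences. Of 79 cytosolic ribosomal proteins, 22 were lower and 0 higher, with a median of -0.22, and of 76 oxidative phosphorylation subunits, 21 were lower and Ndufc1 was higher, with a median of -0.16. Of all genes tested, 8.53% were lower. Rpl7a, of the large ribosomal subunit, was between 417 and 663 RPKM on LF and between 335 and 480 RPKM on HF (-0.34 ± 0.07, adjusted p = 0.00283). Ndufs7, of respiratory complex I, was between 169 and 248 RPKM on LF and between 138 and 190 RPKM on HF (-0.42 ± 0.08, adjusted p = 0.0018). Medians under CR were -0.37 for the ribosomal list and -0.35 for the respiratory one, against -0.14 and -0.05 with no intervention and -0.18 and -0.12 under Ex. Without the CR groups 1 ribosomal and 2 respiratory genes were called lower, and without the pancreas libraries 2 and 6. The ribosomal count was 14 without any of LF+CR 1, LF+Ex 2 or HF+CR 1. After correction for GC content and length 59 and 51 were called lower, and after quantile normalization 13 and 16, when 1 ribosomal gene was called higher. The part of pancreatic RNA and of GC content in these counts was not tested.

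**Figure D4:**
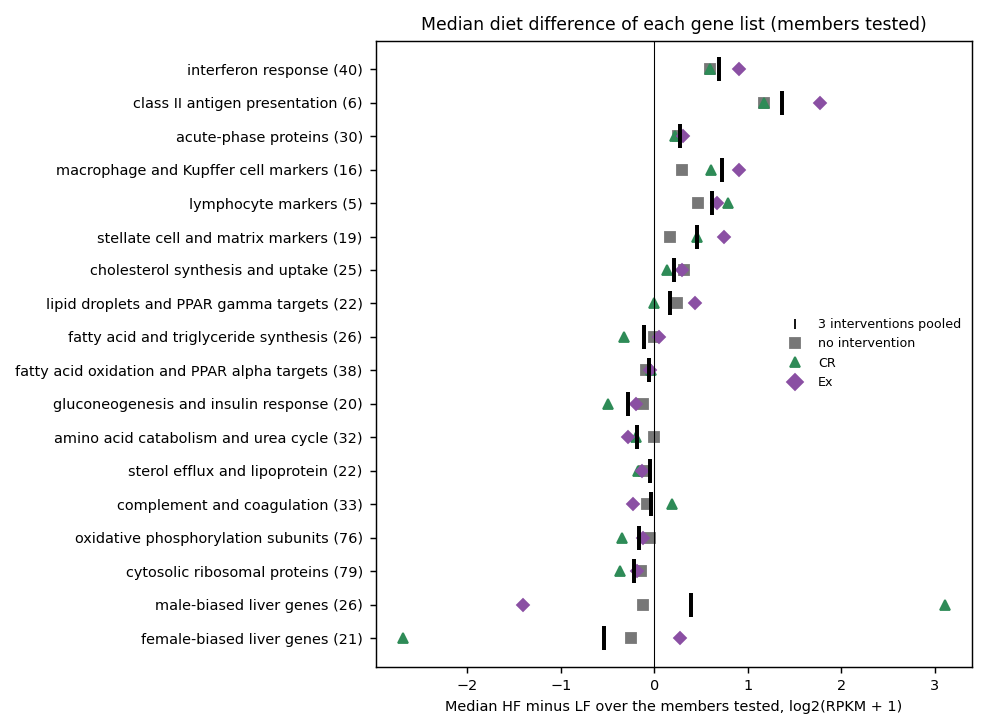
Median difference HF minus LF on log2(RPKM + 1) over the tested members of 18 gene lists (number of members in brackets): the black bar pools the 3 interventions, grey squares are no intervention, green triangles CR and purple diamonds Ex. Interferon response (0.69) and class II antigen presentation (1.37) lie above 0 in each intervention, whereas the male-biased list is at -0.12, 3.11 and -1.4 and the female-biased list at -0.25, -2.69 and 0.28.

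Many sex-biased liver genes had a diet difference that depended on the intervention. The interaction test called 185 of 10358 genes (1.79%; 1281 at an unadjusted p under 0.05), of which 28 were also called for diet. Of the 26 male-biased genes tested, 19 were called in it, and of the 21 female-biased genes 11. These genes are known to follow the pulse pattern of growth hormone. C8a, a male-biased component of the complement membrane attack complex, was at 3.13, 8.95 and 8.33 RPKM in LF+CR and at 193, 160 and 161 RPKM in HF+CR. In the other 4 groups it was between 61.2 and 182 RPKM, so LF+CR stood apart from all other groups (interaction adjusted p = 1.05e-05). Cux2, a female-specific transcription factor of the mouse liver, was at 7.23, 4.45 and 8.82 RPKM in LF+CR and at most 0.462 RPKM in every other library (interaction adjusted p = 2.31e-05). Cyp2b13, a female-biased cytochrome P450, was at 44.9, 15 and 40.7 RPKM in LF+CR and at most 0.254 RPKM in HF+CR, but higher on HF with no intervention, at 5.24, 17.5 and 12.8 RPKM against at most 0.785 RPKM in LF. Its differences were 3.06, -4.85 and 3.4 (interaction adjusted p = 1.93e-06), and its pooled value of 0.54 ± 0.95 averages these. The organic anion transporter gene Slc22a26 and the steroid 5-alpha reductase gene Srd5a1 also depended on the intervention, with differences of -0.78, -3.4 and 0.47 and of -1.03, 0.8 and -1.31. Cux2 passed the filter of 1 RPKM only through LF+CR libraries. Slc22a26, at most 0.772 RPKM on HF, passed it only through LF libraries. The calls of Cux2 and Slc22a26 are therefore a description. Without the CR groups 1 gene was called in the interaction test. Leaving out 1 library gave 92 (without HF+CR 1) to 329 (without HF+CR 3) genes; the count was 100 without LF+CR 1, 121 without LF+CR 2, 113 without LF+Ex 1, 123 without HF+CR 2 and 115 without HF+Ex 3.

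**Figure D5:**
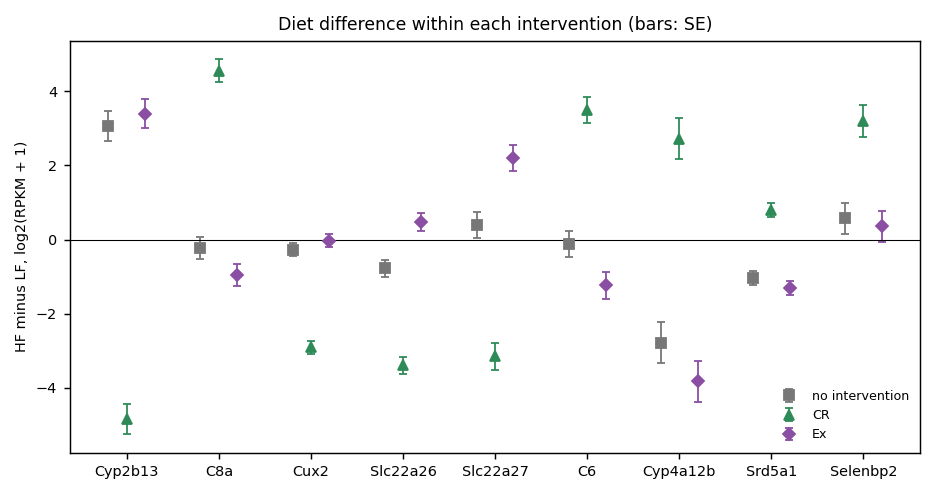
Difference HF minus LF on log2(RPKM + 1), with SE bars, within no intervention (grey squares), CR (green triangles) and Ex (purple diamonds) for 9 genes that depended on the intervention. Cyp2b13 is at 3.06, -4.85 and 3.4 and C8a at -0.23, 4.56 and -0.95.

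Across all genes tested, the diet differences of the 3 interventions, which share no library, had Pearson correlations of 0.33 between none and CR, 0.59 between none and Ex and 0.09 between CR and Ex, given as a description over 10358 genes that are not independent.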

How the data were processed

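PolyA RNA of mouse liver was sequenced in 18 libraries, and the authors deposited RPKM per RefSeq transcript for each, in 1 table whose 550476 values equal those of the single-library files. Reads were aligned with TopHat 1.4.1 to mm10 and quantified with Cufflinks 1.3.0, per the submitters' processing notes, which do not give the settings. RPKM divides by transcript length and by mapped reads, so depth and counting error are unknown.

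RefSeq (GRCm38.p6) gave a gene name to 29438 of 30582 rows and GENCODE to 179, while 965 were left with their identifier. A gene with several rows was represented by the row of highest mean. The filter kept genes reaching 1 RPKM in 3 or more libraries, and log2(RPKM + 1) was fitted with limma 3.58.1 in R 4.3.3, with an intensity trend, diet and intervention as additive terms for the pooled difference, and an F test of the 2 interaction terms. Fold changes are differences on the log2(RPKM + 1) scale, HF minus LF, which understates changes of low genes. Tests are two-sided, with Benjamini-Hochberg adjustment over all genes tested and a threshold of 0.05. The code was tested on simulated data. Libraries of 1 group are numbered alike across groups, but those numbers did not pair them: over 45 same-number pairs the correlation of deviations from group means had a median of 0, and 10 pairs were above 0.1.

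The genes and lists were chosen with earlier results of these data known. Genes were named by rule: the 12 largest differences each way among called genes of mean at least 2 RPKM with 1 sign in all interventions; up to 3 called members of each list by adjusted p; a set of textbook genes whatever their result, a few of which are not reported here; the 6 smallest interaction p-values; and up to 12 genes by adjusted p whose diets do not overlap. Other list members, markers and genes named beside them were chosen after their values were seen. Alternatives were the pseudocount, filter, scaling, moderation, row choice, model terms, libraries and groups left out, and, chosen after seeing the data, correction for GC content and length and leaving out the libraries with Alb above 0.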

Additional observations from a re-analysis of the deposited data

Results flagged for a closer look

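In each diet's 9 libraries, 1 library stood far from the other 8 in 13 of 278 gene-by-diet checks (4.68%), by a gap-to-range ratio above Dixon's critical value; chance flags about 1 in 20. Lpgat1 was flagged in both diets: LF+Ex 3 was listed at 0 against 18.6 to 34 RPKM in the other LF libraries (ratio 0.836), and HF 2 was at 31 RPKM with the other HF libraries at 0 (ratio 1). Tmem248 was listed at 0 in HF+Ex 1 against 3.69 to 12.3 RPKM (0.597). HF+CR 3, the library highest in bile duct markers, was flagged in 3 genes: Igfbp1 at 121 RPKM against 6.11 to 18.4 (0.648), Fitm1 at 16.7 RPKM against 56.7 to 115 (0.627) and Aldh1a1 at 451 RPKM against 738 to 1060 (0.574). LF 2, the next highest in those markers, was flagged in 3 genes: Plgrkt at 2.48 RPKM against 0.833 to 1.35 (0.612), Ern1 at 14.8 RPKM against 9.11 to 11.4 (0.548) and Ctss at 35.7 RPKM against 10.2 to 19.4 (0.495). The part of bile duct RNA in those 6 flags was not tested. HF 1 had Hamp2 at 1510 RPKM against 353 to 714 (0.514). In the libraries with the most pancreatic enzyme RNA, LF+CR 1 had Cyp7a1 at 4.59 RPKM against 13 to 27.3 (0.569), and HF+CR 1 had Nags at 35.6 RPKM against 21.7 to 26.8 (0.573). LF+CR 3 had Sirt4 at 2.49 RPKM against 3.15 to 3.89 (0.51).

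Among the named genes, 15 had a diet difference that depended on the intervention in limma's interaction test. The sex-biased genes and the others with the smallest interaction p had adjusted p-values of 1.93e-06 for Cyp2b13, 1.05e-05 for C8a, 2.31e-05 for Cux2, 8.92e-05 for Slc22a26, 0.000149 for Slc22a27, 0.000506 for C6, 0.000569 for Cyp4a12b, 0.000806 for Srd5a1, 0.00172 for Cyp2b9 and 0.0296 for Selenbp2. The metabolic and other genes were Rnd2 (0.00172), Acot3 (0.016), Gpi1 (0.0203), Orm3 (0.0389) and Me1 (0.0399). Cux2 and Slc22a26 passed the filter only through LF libraries and Orm3 through HF libraries, so their calls are a description. Acot3, Rnd2 and Me1 differed between diets mainly under CR, by -3.97, -2.87 and -2.14, against -1.05, -0.69 and -0.48 with no intervention and -0.48, -0.5 and -0.25 under Ex. Acot3 has close paralogues that can share reads.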

How the results depend on the processing

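The pooled diet test called 2217 genes, 1202 with a mean of at least 5 RPKM, 1209 without the pancreas libraries, 1141 without the CR groups, 781 without the Ex groups and 733 without the 4 libraries with Alb above 0, and 1776 (without LF+Ex 1) to 2488 (without LF+Ex 3) when 1 library was left out. The interaction test called 185 genes, 49 without the pancreas libraries, 462 without the bile duct libraries, 1 without the CR groups, 65 without the Ex groups and 92 to 329 without 1 library, and it could not be fitted without the libraries with Alb above 0. Calls on list members numbered 230, with 119, 140, 97 and 94 without the pancreas libraries, the CR groups, the Ex groups and the Alb libraries, and 188 to 255 without 1 library. Fewer samples or genes enter each of these fits. Without the Alb libraries 29.9% of the genes called in the main fit stayed called. Named genes that lost the call there include Ubd, Lcn2, Cyp4a31, Acot1, Igfbp2, Plin5, Fabp4, Slc27a5, Cyp27a1, F12, Serpinc1, Ern1 and Rora. With the replicate number as a block, 2114 genes were called for diet and 127 for the interaction, and the numbers do not pair the libraries (3 of 18 libraries were closest to their own number). Of the 4457 alternative values of the 118 named genes called, 0 changed direction and 317 lost the call. The other named genes changed direction 53 times, and the cause was not tested. Without the CR groups C6 was at -0.68, C8a at -0.59, Fasn at 0.63, Per2 at 0.43, Pparg at 0.22 and Slc22a27 at 1.29. Without the Ex groups Cd36 was at -0.41, Cyp2b9 at -1.46, Cyp2b13 at -0.9, Fgf21 at -0.14 and Sirt1 at -0.04. Without the Alb libraries Cd36 was at -0.35, Cyp2b9 at -1.46, Cyp2b13 at -1.13 and Cyp4a12b at 0.03. Without the groups with no intervention Cyp2b13 was at -0.72, Pparg at 0.13 and Sirt1 at -0.09. Without the pancreas libraries Fasn was at 0.04, Per2 at 0.1 and Slc22a27 at 0.09, and without the bile duct libraries Pparg was at 0.04 and Slc22a27 at 0.02. GC correction gave Fasn 0.04, Per2 0.03 and Sirt1 -0.07, quantile normalization gave Sirt1 -0.07, a pseudocount of 0.1 gave Pparg 0.03 and Slc22a27 0.02, and summed rows gave Pparg 0.59. When 1 library was left out the values that ran across 0 were Cd36 from -0.04 to 0.43, Fasn from -0.26 to 0.1, Fgf21 from -0.14 to 0.34, Per2 from -0.19 to 0.12, Pparg from -0.28 to 0.07, Sirt1 from -0.07 to 0.13 and Slc22a27 from -0.41 to 0.13.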

Other observations

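Further lists had few members called, where 12.9% of all genes tested were higher and 8.53% lower. The shares of the autophagy and lysosome list and of the higher complement genes were near these. In the autophagy and lysosome list, 4 of 26 genes were higher on HF and 3 lower: the lysosomal protease Ctss (1.18 ± 0.24 on the log2 scale, adjusted p = 0.00323 by limma) rose, as did Atg7 and Atg5, while Map1lc3a, Map1lc3b and the cholesterol exporter Npc1 fell. Ctss is also abundant in macrophages, whose marker sum was between 166 and 515 RPKM on LF and between 205 and 539 RPKM on HF, and the part of those cells was not tested. In the cell cycle list 4 of 13 genes were higher and 0 lower, the replicative helicase subunits Mcm2, Mcm3 and Mcm5 (0.54, 0.46 and 0.48) and the thymidylate synthase Tyms (0.21). Mcm5 was at most 0.609 RPKM on LF, and Mcm2 reached 1 RPKM there only in LF 1 and LF 2, at 1.37 and 1.51 RPKM. Both passed the filter through HF libraries, so their calls are a description. In the complement and coagulation list 4 of 33 genes were higher and 5 lower: the clotting factors F7, F10 and F12 and antithrombin Serpinc1 fell by 0.32, 0.33, 0.31 and 0.31 and C3 by 0.35, and C1qa, made mainly by macrophages, rose by 0.69. The count of higher complement genes was 2 without any of LF+CR 1, LF+Ex 1, HF 2 or HF+CR 1.

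In the chromatin list 3 of 60 genes were higher, a smaller share than the 12.9% of all genes tested, and 6 were lower, near the 8.53% of all genes. The mitochondrial sirtuins Sirt5 and Sirt4 rose by 0.46 ± 0.09 and 0.32 ± 0.07 and the deacetylase Hdac3 by 0.2, while the demethylases Kdm2b and Kdm4b, the methyltransferases Setd1a and Kmt2c, the acetyltransferase Ep300 and the bromodomain gene Brwd1 fell by 0.19 to 0.5. Sirt1, the nuclear sirtuin, was not called (0.02 ± 0.16). In the stress list 0 of 26 genes were higher and 3 lower, Ppp1r15a (-0.55 ± 0.08, adjusted p = 0.000357 by limma), Ern1 and Atf6. In the clock list 0 of 21 genes were higher and 2 lower, Cry1 (-0.52) and Rora (-0.42), and Per2 was not called (-0.05). Of 33 xenobiotic genes, 4 were lower (Por, Ces1d, Ces2a and Nr1i2) and Aldh1a1 was higher. Por, the electron donor of microsomal cytochromes P450, fell by 0.96 on the log2 scale (SE 0.25, adjusted p = 0.0136 by limma).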
